A study of Mus musculus with 4 samples.

Results

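The Ifit genes of mouse chromosome 19 were examined in NOD.B10 and BL/10 mice, in sorted B cells of the cervical nodes, which drain the salivary glands. The family was taken as the 5 rows of the deposited count table named Ifit1, Ifit2, Ifit3, I830012O16Rik (Ifit3b in RefSeq) and Gm14446 (Ifit1bl1 in RefSeq), of 23418 gene symbols in all. All 5 passed the filter on low counts, which left 13075 genes for testing. NOD.B10 mice are autoimmune-prone NOD mice that carry the H2 region of C57BL/10 and serve as a model of Sjögren's disease, and BL/10 mice were the control strain. Each strain had 2 libraries of bulk RNA sequencing. The labels give no age, sex, treatment or sort markers, and do not say whether each library is a separate animal. A p-value here therefore reflects the spread among 4 libraries alone, part of which may be technical. Total counts were 19328803 and 25375678 reads in NOD.B10 and 29372751 and 26150794 reads in BL/10.

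IFIT proteins are built from tetratricopeptide repeats and are among the proteins most strongly induced by type I interferon. Interferon binds its receptor and activates ISGF3, a transcription factor complex that includes IRF9 and binds interferon-stimulated response elements in the promoters of its targets. IFIT1 binds RNA whose cap lacks ribose methylation and blocks its translation and IFIT2 and IFIT3 act with it as RNA-binding or scaffold partners.

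The DNA just before the starts that promoter windows are built on is shown for the 4 members in which the core of the response element was found. These stretches carry the letters that these 4 members share. Those of Ifit3, I830012O16Rik and Gm14446 lie inside the RefSeq gene spans given below, so a window's start need not be the outer end of the gene. The letters searched were GAAA, any 2 bases and GAAA, on both strands, in RefSeq promoter windows of 300 bases (250 before and 50 after each start) on GRCm38.p6. Capitals mark each match, which reads TTTC, 2 bases and TTTC on the strand shown.
Ifit1, chr19:34640744-34640888, plus strand: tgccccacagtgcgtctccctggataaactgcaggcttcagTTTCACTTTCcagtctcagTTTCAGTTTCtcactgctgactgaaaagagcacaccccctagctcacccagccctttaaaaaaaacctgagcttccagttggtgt
Ifit3, chr19:34583329-34583528, plus strand: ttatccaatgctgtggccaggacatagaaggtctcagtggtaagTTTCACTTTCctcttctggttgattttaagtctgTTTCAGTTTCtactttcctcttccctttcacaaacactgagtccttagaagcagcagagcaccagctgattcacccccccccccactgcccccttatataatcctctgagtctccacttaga
I830012O16Rik, chr19:34607757-34607956, plus strand: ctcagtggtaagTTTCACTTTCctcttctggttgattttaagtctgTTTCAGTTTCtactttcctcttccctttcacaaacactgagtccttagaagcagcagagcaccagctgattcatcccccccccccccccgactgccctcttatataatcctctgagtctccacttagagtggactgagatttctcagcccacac
Gm14446, chr19:34601969-34602168, minus strand: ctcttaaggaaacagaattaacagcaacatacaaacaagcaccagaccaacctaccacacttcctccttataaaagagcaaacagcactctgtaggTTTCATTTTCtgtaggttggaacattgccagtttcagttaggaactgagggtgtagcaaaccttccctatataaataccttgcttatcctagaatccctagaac

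Ifit1, Ifit3 and I830012O16Rik each held 2 matches, and Gm14446 held 1 in each of its windows. In the Ifit1 stretch the matches lay at −104 to −95 and at −85 to −76 relative to the start. The Ifit3 and I830012O16Rik windows were 94.5% identical over 274 aligned bases, so their matches are copies of the same sequence rather than separate observations. The 2 Gm14446 windows likewise hold near-copies of 1 stretch around the match. Of 7 windows of the 5 members 5 held a match, against 3.44% of all 32851 promoter windows. The longer form GAAA, any 2 bases and GAAACT, which contains the shorter, was found in 3 of the 7, in Ifit1, Ifit3 and I830012O16Rik, against 0.271% of all windows. Neither of the 2 Ifit2 windows held these letters, which says nothing about sites outside them.

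All 5 members were lower in NOD.B10, between 3.72-fold for Ifit2 and 11.2-fold for I830012O16Rik (edgeR quasi-likelihood test, Benjamini-Hochberg adjusted over all genes, called at an adjusted p under 0.05). Among all genes tested 15.2% were called in either direction, 8.63% lower and 6.55% higher in NOD.B10. The libraries of the 2 strains did not overlap for any of the 5 members, which was also so, in the lower direction, for 27.7% of all genes. The median log2 fold change of the members was −3.21, beside −0.0032 over all genes tested. In bulk RNA, fewer cells of a type and less RNA per cell cannot be told apart.

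Ifit1 (chromosome 19, 34640889 to 34650009), the sensor of caps that lack ribose methylation, had 40 and 46 reads in NOD.B10, against 640 and 493 reads in BL/10. Scaled to counts per 1000000 reads (CPM), this was 2.07 and 1.80 CPM in NOD.B10 and 21.6 and 19.1 CPM in BL/10. Both NOD.B10 libraries lay far below both BL/10 libraries, with little spread within a strain. Ifit1 fell 10.5-fold (log2 fold change −3.40, SE 0.245, adjusted p = 6.59e-07 by the edgeR test).

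Gm14446, a mouse gene with an Ifit1-like transcript, had 113 and 165 reads in NOD.B10, against 1013 and 885 reads in BL/10. Its levels were 5.86 and 6.46 CPM in NOD.B10 and 34.2 and 34.3 CPM in BL/10, so that it was the steadiest member within BL/10. It fell 5.55-fold (log2 fold change −2.47, SE 0.179, edgeR adjusted p = 6.80e-07). Over 1389 aligned bases its transcript was 76.7% identical to that of Ifit1, and 0.614% of the 50-base stretches of Ifit1 occurred in it. Its RefSeq span, 34592888 to 34662981, encloses I830012O16Rik, 2010002M12Rik and Ifit1. In the GENCODE M21 models it shared 0 exonic bases with any other gene. The models behind the counts are not given and may differ, as the deposited length was 2375 bases, against 2260 exonic bases in GENCODE M21.

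Ifit2 (34550550 to 34576534), an RNA-binding member also known to promote cell death, had 281 and 431 reads in NOD.B10, against 1912 and 1356 reads in BL/10. These were 14.6 and 16.9 CPM in NOD.B10 and 64.6 and 52.6 CPM in BL/10, the highest CPM of any member in each library. It had the smallest fall of the family, 3.72-fold (log2 fold change −1.90, SE 0.158, edgeR adjusted p = 2.74e-06).

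Ifit3 (34583119 to 34588982), a scaffold that in human cells stabilises IFIT1, had 58 and 63 reads in NOD.B10, against 695 and 699 reads in BL/10. At 3.01 and 2.47 CPM in NOD.B10 and 23.5 and 27.1 CPM in BL/10 it fell 9.27-fold (log2 fold change −3.21, SE 0.226, edgeR adjusted p = 5.34e-07). The groups were again well apart.

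I830012O16Rik (34607530 to 34613403), the near-copy of Ifit3, was the least abundant member, with 13 and 14 reads in NOD.B10, against 174 and 202 reads in BL/10. Its levels were 0.674 and 0.548 CPM in NOD.B10 and 5.88 and 7.83 CPM in BL/10. It fell 11.2-fold with the largest error of the family (log2 fold change −3.49, SE 0.405, edgeR adjusted p = 5.19e-05). The 27 reads of both NOD.B10 libraries have an exact 95% Poisson interval of 17.8 to 39.3, which covers counting error only.

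Ifit3 and I830012O16Rik carry uncertain counts, because their transcripts were 97.8% identical over 1700 aligned bases. Of the 50-base stretches of the Ifit3 transcript 51.2% occurred in that of I830012O16Rik, and of the 100-base stretches 31.65%. The reads of I830012O16Rik per read of Ifit3 were 0.224 and 0.222 in NOD.B10 and 0.250 and 0.289 in BL/10. With both rows added into 1 feature before the fit there were 71 and 77 reads in NOD.B10, against 869 and 901 reads in BL/10, a fall of 9.64-fold (log2 fold change −3.27, SE 0.211, edgeR adjusted p = 2.11e-07). The fall of this gene pair therefore did not turn on how its reads were divided.

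**Figure D1:**
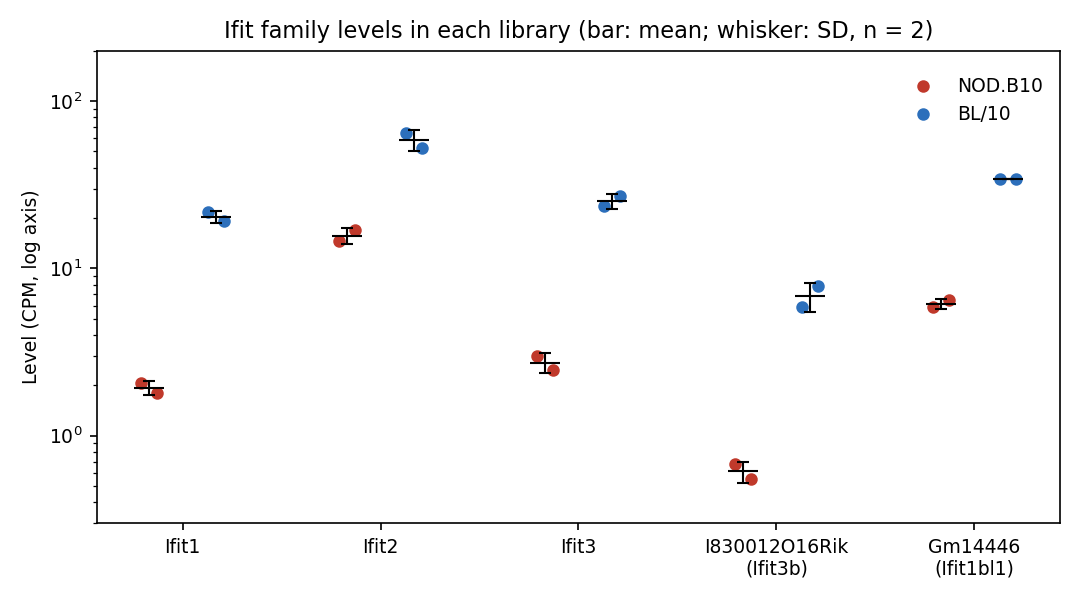
Level of each Ifit gene in counts per 1000000 reads (CPM, log axis) in 2 NOD.B10 libraries (red) and 2 BL/10 libraries (blue), with the mean (bar) and SD (whisker). Every NOD.B10 point lies below every BL/10 point of the same gene, and the gap is narrowest for Ifit2.

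The 5 rows together made up 26.2 and 28.2 CPM in NOD.B10, against 149.8 and 141 CPM in BL/10. Fitted as 1 feature, the family fell 5.35-fold (log2 fold change −2.42, SE 0.122, edgeR adjusted p = 2.70e-08). Within a strain the members' CPM differed between libraries by at most 1.23-fold in NOD.B10 and 1.33-fold in BL/10, far less than between the strains.

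Divided by the deposited gene length, levels can be compared between members. In NOD.B10 the order of the levels was Ifit2 with 3.98 ± 0.415 CPM per kilobase, Gm14446 with 2.59 ± 0.180, Ifit3 with 1.37 ± 0.191, Ifit1 with 0.734 ± 0.0728 and I830012O16Rik with 0.304 ± 0.0441 CPM per kilobase (SD, n = 2 each). Neighbours in this order did not overlap. In BL/10 Gm14446, with 14.4 ± 0.0273 CPM per kilobase, lay above Ifit3, with 12.7 ± 1.28, in both libraries, and Ifit2, with 14.8 ± 2.15 CPM per kilobase, overlapped both, while Ifit1 at 7.72 ± 0.672 and I830012O16Rik at 3.41 ± 0.686 CPM per kilobase lay below them (SD, n = 2 each).

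The make-up of the family's reads differed between the strains in these 4 libraries. Ifit2 held 55.6% and 59.9% of the reads of the 5 genes in NOD.B10, against 43.1% and 37.3% in BL/10. Ifit1 held 7.92% and 6.40% in NOD.B10, against 14.4% and 13.6% in BL/10. Ifit3 held 11.5% and 8.76% in NOD.B10, against 15.7% and 19.2% in BL/10. I830012O16Rik held 2.57% and 1.95% in NOD.B10, against 3.92% and 5.56% in BL/10. Of the 5 shares, that of Gm14446 alone overlapped between the strains, at 22.4% and 22.9% in NOD.B10 and 22.8% and 24.3% in BL/10. Lack of overlap is common with 2 against 2 libraries. The levels of 27.7% of all genes did not overlap in the lower direction, and those of 27.9% in the higher. The shares of a library add up to a fixed whole, so they are not separate results. The reads of Ifit1 per read of Ifit2 were 0.142 and 0.107 in NOD.B10 and 0.335 and 0.364 in BL/10, with no overlap. An exact two-sided permutation test of this ratio gave p = 0.333, the smallest that this test allows with 2 against 2 libraries, so it cannot pass a threshold of 0.05 here.

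**Figure D2:**
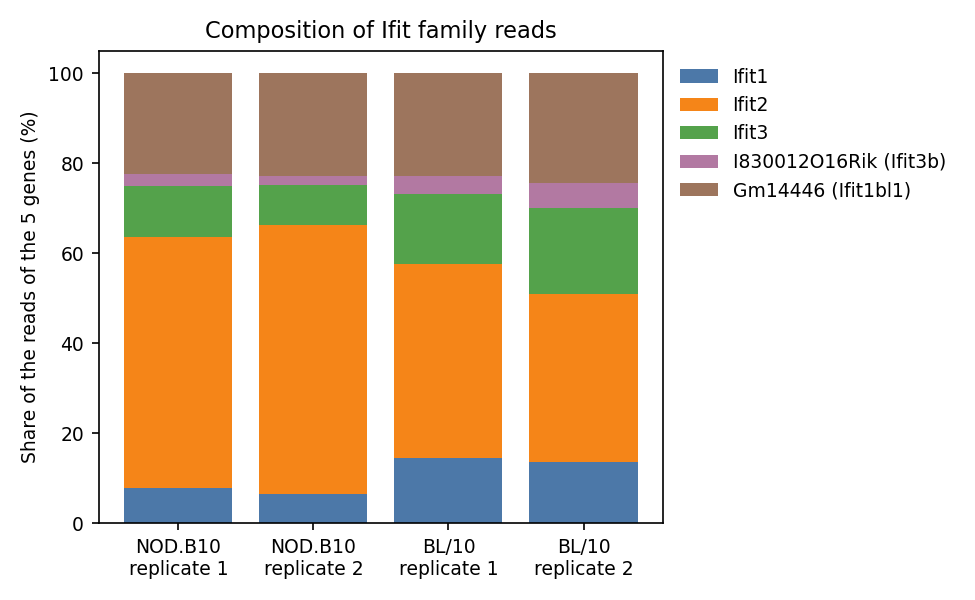
Share of the reads of the 5 Ifit genes taken by each gene (percent of reads, stacked bars to 100) in each NOD.B10 and BL/10 library. Ifit2 takes 55.6% and 59.9% in NOD.B10 against 43.1% and 37.3% in BL/10, while Gm14446 stays between 22.4% and 24.3%.

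Of the signals that could induce the family, the interferon genes themselves had few or 0 reads in these B cell libraries. Interferon made by cells outside the sort was not measured. Of 19 interferon genes, among them Ifnb1 and 11 Ifna genes, 16 had 0 reads in every library, which allows up to 0.155 CPM in a NOD.B10 library and 0.116 CPM in a BL/10 library. Ifng had 4 and 2 reads in NOD.B10, against 4 and 8 reads in BL/10. Ifnk, an interferon of skin, was the only interferon gene that passed the filter, with 53 and 33 reads in NOD.B10, against 28 and 13 reads in BL/10. It was not called (log2 fold change 1.45, edgeR adjusted p = 0.137), except with the second NOD.B10 library left out (adjusted p = 0.0258).

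Among 10 genes of the interferon receptor and of ISGF3, 1 fell and 9 did not pass the test, where 15.2% of all genes were called in either direction, with a median log2 fold change of −0.04. Irf9, the DNA-binding subunit of ISGF3, was lower at 114 ± 9.01 CPM in NOD.B10 and 165 ± 23.3 CPM in BL/10 (SD, n = 2 each; log2 fold change −0.53, SE 0.126, edgeR adjusted p = 0.0113), with adjusted p = 0.0545 when the first NOD.B10 library was left out. The receptor chain gene Ifnar1 had 162 and 211 CPM in NOD.B10, against 237 and 208 CPM in BL/10 (edgeR adjusted p = 0.255).

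Among 19 genes for sensors of nucleic acids and for the factors they activate, 12 did not pass the test, 5 fell and 2 rose. Their median log2 fold change was −0.16, and 15.2% of all genes were called in either direction. Irf7, the factor that amplifies interferon production, had 23.2 and 20.1 CPM in NOD.B10, against 79.1 and 73.3 CPM in BL/10 (log2 fold change −1.82, SE 0.136, edgeR adjusted p = 9.73e-07). Ifih1, which encodes the RNA sensor MDA5, had 4.61 and 3.72 CPM in NOD.B10, against 18.3 and 16.98 CPM in BL/10 (log2 fold change −2.09, SE 0.230, edgeR adjusted p = 3.45e-05). The single-stranded RNA receptor gene Tlr7 and Dhx58, which encodes LGP2, fell with log2 fold changes of −1.05 and −0.79. The remaining calls, named because they were few, were Ddx58 (RIG-I), lower by a log2 fold change of −0.42, and the DNA sensor gene Mb21d1 (cGAS) and the adaptor gene Traf3, higher by 1.07 and 0.37. These last 3 calls were lost with some libraries left out, and that of Traf3 also with a replicate block, fits that leave fewer residual degrees of freedom. Ddx58 kept its log2 fold change, at −0.43 (edgeR adjusted p = 0.0793) when the first and −0.42 (adjusted p = 0.0840) when the second NOD.B10 library was left out. Mb21d1 had 0.99 (adjusted p = 0.107) when the first BL/10 and 0.76 (adjusted p = 0.202) when the second NOD.B10 library was left out, and Traf3 had 0.31 without the first BL/10, 0.41 without the first NOD.B10, 0.32 without the second NOD.B10 library and 0.37 with a replicate block (adjusted p from 0.0511 to 0.219). The count of sensor genes called higher ran from 0 to 4 over the alternatives, and was 0 without the second NOD.B10 library, 1 without the first NOD.B10 or the first BL/10 library or with a replicate block, and 4 without the second BL/10 library.

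Of 11 genes that restrain the pathway, 8 did not pass the test, 2 fell and 1 rose, where 15.2% of all genes were called in either direction. The median of this list was −0.06. Usp18, the interferon-induced protease that blocks receptor signalling, had 12.9 and 16.5 CPM in NOD.B10, against 34.3 and 30.0 CPM in BL/10 (log2 fold change −1.12, SE 0.178, edgeR adjusted p = 7.23e-04). Samhd1, a nucleotide hydrolase, was lower by a log2 fold change of −0.38, a call lost without the first NOD.B10 library (edgeR adjusted p = 0.207). Socs3, an inhibitor of cytokine signalling, was higher, with 34.0 and 30.1 CPM in NOD.B10, against 18.4 and 20.3 CPM in BL/10 (log2 fold change 0.72, SE 0.160, edgeR adjusted p = 0.00755). With the second BL/10 library left out, 2 genes of this list were called higher, and with the first NOD.B10 library left out 1 was called lower.

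Other interferon-stimulated effector genes were lower along with the Ifit family. Of 47 tested members of a list of 50, 35 fell, 12 did not pass the test and 0 rose, and 0 also rose in each of 14 alternative fits, DESeq2 and limma-voom among them, with a median log2 fold change of −0.92. Over all genes tested 8.63% were called lower. The list was drawn up with earlier results of these libraries known, so its direction is not independent evidence. Rsad2, which encodes viperin, had 0.674 and 0.588 CPM in NOD.B10, against 24.7 and 35.8 CPM in BL/10 (log2 fold change −5.58, SE 0.294, edgeR adjusted p = 3.55e-08). Oas3 and Oas2, synthases of the messenger that activates RNase L, fell with log2 fold changes of −3.002 and −3.57. Eif2ak2, the kinase PKR that halts translation, had 15.5 and 14.8 CPM in NOD.B10, against 73.0 and 72.4 CPM in BL/10 (log2 fold change −2.26, SE 0.135, edgeR adjusted p = 9.36e-08). The 5 Ifit values, from −3.49 to −1.90, lay within the range of this list, from −5.58 to 0.09.

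Of 20 tested genes for RNA cap enzymes and for translation factors that IFIT proteins act on, 18 did not pass the test, 1 was lower and 1 higher, where 15.2% of all genes were called in either direction, with a median log2 fold change of −0.06. Eif3e, a subunit of the initiation factor that IFIT proteins bind, had 159 and 160.5 CPM in NOD.B10, against 260.5 and 218 CPM in BL/10 (log2 fold change −0.58, SE 0.115, edgeR adjusted p = 0.00379). Rngtt, the capping enzyme, was higher, with 77.4 and 64.4 CPM in NOD.B10, against 43.0 and 53.7 CPM in BL/10 (log2 fold change 0.55, SE 0.144, edgeR adjusted p = 0.0199). The Rngtt call was lost without the first BL/10 or the first NOD.B10 library (edgeR adjusted p = 0.0760 and 0.131). With the second BL/10 library left out, 2 genes of this list were called higher.

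**Figure D3:**
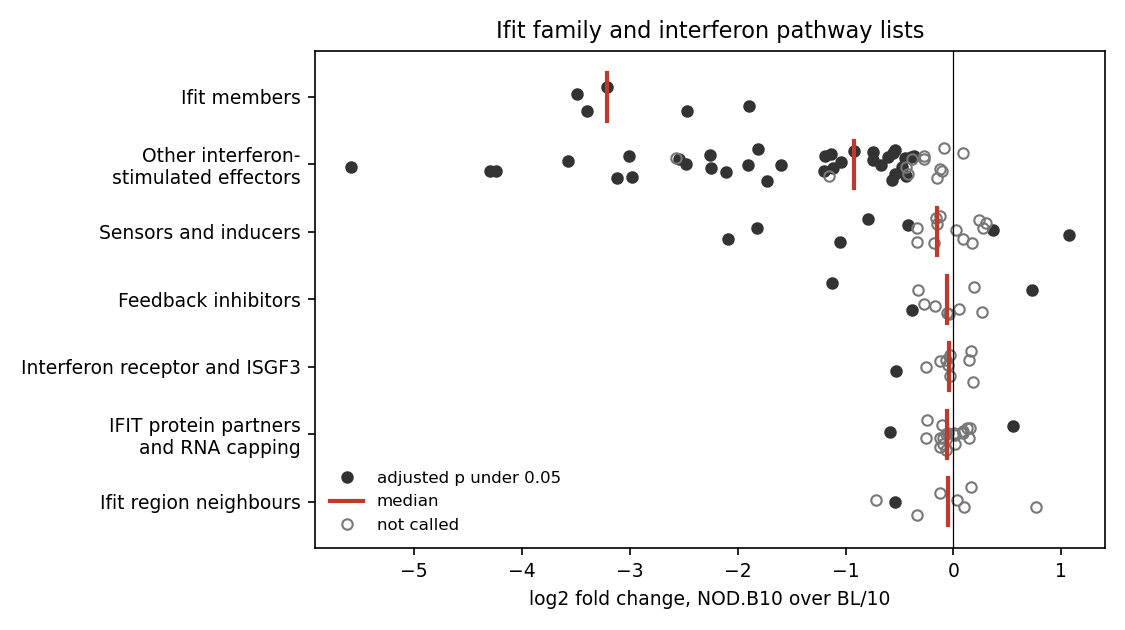
Log2 fold changes, NOD.B10 over BL/10 (x axis), of the tested genes of the Ifit family and of 6 lists (rows, points spread vertically for legibility). Filled points passed an adjusted p under 0.05, open points did not, and red lines are medians, which are −3.21 for the Ifit family, −0.92 for other effectors and between −0.16 and −0.04 for the rest.

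Genes beside the cluster showed smaller differences than its members. Of 12 listed neighbours on chromosome 19, 8 had enough reads for the edgeR test, and 1 of them fell while 7 did not pass it. This is near the share of all genes called in either direction, 15.2%. Their median log2 fold change was −0.05. Lipa, the lysosomal lipase gene next to Ifit2, had 49.0 and 46.5 CPM in NOD.B10, against 66.1 and 54.5 CPM in BL/10 (log2 fold change −0.34, SE 0.133, edgeR adjusted p = 0.114), and was called only without the second BL/10 library (adjusted p = 0.0161). Stambpl1, a deubiquitinase gene farther along, was the neighbour that fell (log2 fold change −0.54, SE 0.150, edgeR adjusted p = 0.0265), a call lost at adjusted p = 0.0521 without the second BL/10 and 0.173 without the second NOD.B10 library. Acta2, the smooth muscle actin gene, had 5.49 and 1.61 CPM in NOD.B10, against 2.03 and 2.09 CPM in BL/10, and was not called (edgeR adjusted p = 0.418). Acta2 was called higher, at adjusted p = 0.0126, when the second NOD.B10 library was left out, and its log2 fold change was −0.37 when the first was.

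Inside the cluster lies 2010002M12Rik (Ifit1bl2 in RefSeq), which the family as defined here leaves out. It had 3 and 16 reads in NOD.B10, against 18 and 19 reads in BL/10, so the strains overlapped and no difference was detectable at this depth (log2 fold change −0.72, SE 0.793, edgeR adjusted p = 0.629). Its start lies back to back with that of Ifit1, and its promoter window overlaps the Ifit1 window and holds the same 2 motif matches, on the other strand. Its transcript was 89.3% identical to that of Gm14446 over 2203 aligned bases, and 7.06% of the 50-base stretches of Ifit1 occurred in it, so its few reads are uncertain.

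**Figure D4:**
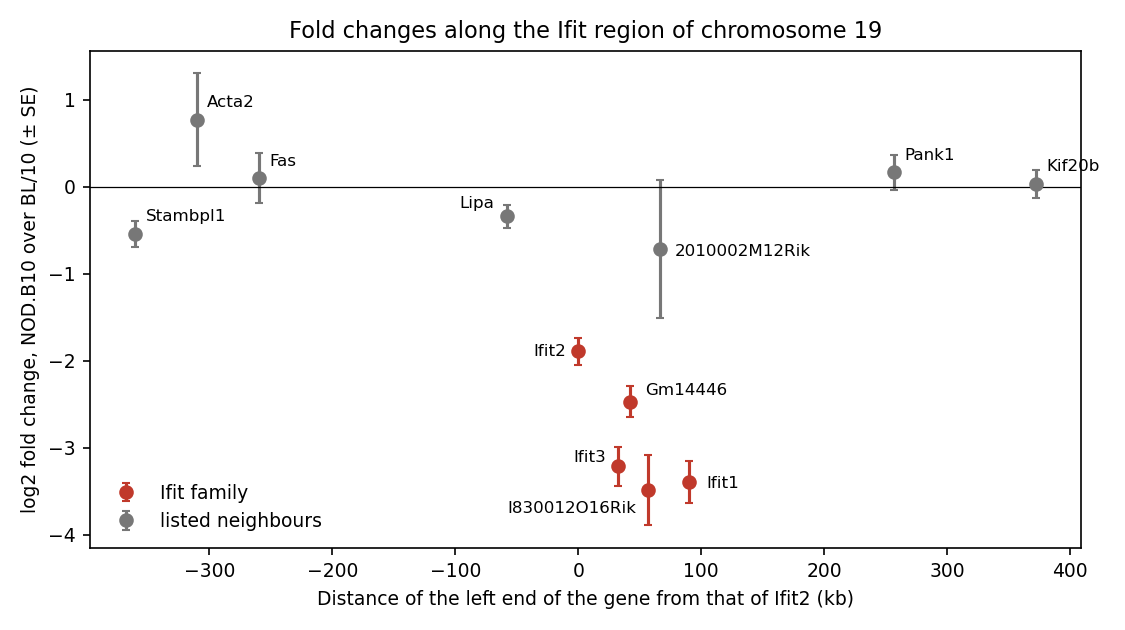
Log2 fold change, NOD.B10 over BL/10 (y axis, with SE), of Ifit genes (red) and tested listed neighbours (grey), against the distance of the left end of each gene from that of Ifit2 (kb). The 5 Ifit genes lie between −3.49 and −1.90, while the neighbours shown lie between −0.72 and 0.77; the tested neighbour Rpp30 lies beyond the right edge.

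The genes most like the family were found by the Euclidean distance, over the 4 libraries, between centred log2 CPM and the mean centred profile of the 5 members. Other tested genes were ranked, with gene models (Gm or Rik names) left out. The nearest was Rgs18, a regulator of G protein signalling, at a distance of 0.0753, with 2.07 and 1.96 CPM in NOD.B10, against 14.5 and 15.9 CPM in BL/10. Oas3 followed Ccdc141 at 0.168, with 7.57 and 7.13 CPM in NOD.B10, against 60.4 and 57.3 CPM in BL/10. The other 6 of the 8 nearest genes, Ccdc141, Mefv, Pdk4, Ndrg2, Col4a3 and Tmem130, had 0 reads in NOD.B10 and at most 16 reads in a BL/10 library, so their log2 values in NOD.B10 depend on the added prior count of 2. The members' own distances from their mean were 0.386 for Ifit3, 0.405 for Gm14446, 0.532 for Ifit1, 0.567 for I830012O16Rik and 0.997 for Ifit2.

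The libraries carried B cell markers throughout, and some markers of other cells were lower along with the Ifit family. Over all genes tested 8.63% were called lower and 6.55% higher in NOD.B10. Summed over 13 B cell markers the level was 27278 and 26898 CPM in NOD.B10 and 22336 and 23731 CPM in BL/10, and of these markers 1 rose (Fcer2a). That count was 6 without the second BL/10 library, 3 without the first and 2 without either NOD.B10 library, and among the other settings it was 5 with no filter, 4 with library size alone, 3 with limma-voom and 2 with DESeq2, non-robust dispersion or the replicate block. Of 20 T cell markers tested 19 fell, with a summed level of 72.8 and 69.5 CPM in NOD.B10, against 643 and 785 CPM in BL/10. Most of the NOD.B10 sum came from Lck, with 38.3 and 45.9 CPM, against 64.5 and 75.6 CPM in BL/10. Of the T cell markers 0 had 0 reads in both libraries of a strain. Cd3e, a chain of the T cell receptor complex, had 24 and 8 reads in NOD.B10, against 1274 and 1531 reads in BL/10. Cd3g, Cd8b1 and Themis had at most 4 reads in a NOD.B10 library. They passed the filter through their BL/10 reads alone, so their fall was largely fixed by the filter. Others, such as Cd3e, had too few reads for the filter in 1 NOD.B10 library. All 6 natural killer cell markers tested fell, of 10 listed, with 2.85 and 3.92 CPM in NOD.B10, against 15.3 and 27.8 CPM in BL/10. Klrk1, Klra8, Klrd1, Gzma and Gzmb had 0 reads in NOD.B10 (Klra8 in BL/10 as well). Of the markers tested, only Prf1 had more than 4 reads in a NOD.B10 library, with 49 and 83, against 181 and 209 in BL/10. The others passed the filter through their BL/10 reads alone, so their fall was largely fixed by the filter. The same holds for markers such as Siglech and S100a8, with few or 0 NOD.B10 reads. The natural killer count was 4 without the second BL/10 library. Of 12 macrophage and monocyte markers tested 4 fell, with 60.8 and 43.7 CPM in NOD.B10, against 146 and 148 CPM in BL/10. Most of that gap came from Apoe, with 16.69 and 17.59 CPM in NOD.B10, against 81.04 and 80.83 CPM in BL/10. Ly6c2 had 1 and 2 reads in NOD.B10, against 503 and 419 reads in BL/10, and Csf1r and Ccr2 were the other calls. Emr1 went the other way but was not called, with 10.6 and 8.7 CPM in NOD.B10, against 7.2 and 5.1 CPM in BL/10. Lyz2, C1qa, C1qb and C1qc overlapped between the strains. Of 9 plasmacytoid dendritic cell markers tested 5 fell, Bst2 among them, which is also an interferon-stimulated effector, with 447 and 432 CPM in NOD.B10, against 668 and 829 CPM in BL/10. Most of that sum came from Tcf4 and Ly6d, which other lymphoid cells also express. Tcf4 had 299.6 and 289 CPM in NOD.B10, against 314 and 275 CPM in BL/10, and Ly6d had 99.9 and 88.6 CPM in NOD.B10, against 272 and 453 CPM in BL/10. Siglech, a defining marker of these cells, had 2 and 2 reads in NOD.B10, against 37 and 82 reads in BL/10.

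Of 7 dendritic cell markers tested 1 fell, Itgax, with a summed level of 182 and 154 CPM in NOD.B10, against 232 and 232 CPM in BL/10. Most of that sum came from Ccr7, so it says little about the other markers. Ccr7 had 169 and 142 CPM in NOD.B10, against 213 and 182 CPM in BL/10, and was not called. Batf3 had 0 reads in NOD.B10 and 0 and 4 reads in BL/10. Of 6 neutrophil markers tested 2 fell, with 2.80 and 1.45 CPM in NOD.B10, against 4.59 and 9.15 CPM in BL/10. S100a8, S100a9 and Retnlg had 0 reads in NOD.B10. In BL/10 S100a8 had 18 and 48 reads, S100a9 had 6 and 21 and Retnlg had 0 and 2. Of 8 plasma cell markers tested 2 fell, with 699.8 and 624 CPM in NOD.B10, against 1319 and 682 CPM in BL/10. The dendritic count was 3 without the second BL/10 library, with 1 marker then called higher, and 2 without the first BL/10 or the first NOD.B10 library, with no filter, non-robust dispersion, DESeq2 or limma-voom. The neutrophil count was 1 without the second BL/10 library and 4 without the second NOD.B10 library or with no filter, and the stricter filter left 0 of these markers to test. The plasma cell count was 0 without the first BL/10 library, with 1 marker then called higher, 1 with the stricter filter and 4 with DESeq2 or non-robust dispersion. The part of these other cells in the difference of the Ifit family was not tested.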

How the data were processed

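Raw read counts and gene lengths came from the single table that the authors deposited. The submitters' processing notes name the build mm10 and the tools featureCounts, Subread 1.6.5, SAMtools 1.3 and HISAT2 2.1.0. The annotation, strand setting and treatment of multiply aligned reads are not given in the sources used here, so counts of near-identical or antisense genes are uncertain. Reads of both strains were aligned to this C57BL/6J build, and any loss of reads from NOD alleles was not measured.

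The main test was edgeR 4.0.16's quasi-likelihood test in R 4.3.3 (TMM, robust dispersion, filterByExpr with a minimum count of 10 and total of 15) over 13075 genes, with Benjamini-Hochberg adjustment over all of them. CPM use TMM-scaled library sizes of the filtered table, and the SE is the size of the unshrunk log2 fold change over the square root of F. Floors are 3 reads per library. Alternatives used DESeq2 1.42.0 and limma 3.58.1, among others. The procedure was tested on simulated counts. Gene models were matched to RefSeq GRCm38.p6 (5 of 5 members) and GENCODE M21. Members and lists were chosen with earlier results of these data known. Genes named from each list were up to 4 called members with the smallest adjusted p, and up to 2 uncalled where fewer than 2 were called. Acta2, Ddx58, Mb21d1, Traf3, Fcer2a, Cd3e, Cd3g, Cd8b1, Themis, Lck, Prf1, Apoe, Ly6c2, Emr1, Lyz2, C1qa, C1qb, C1qc, Itgax, Ccr7, Tcf4, Ly6d, Siglech, Igj, Prdm1, Tnfrsf17, Xbp1, Irf4, Mzb1 and Derl3 were named after their values were seen. Immunoglobulin and T cell receptor constant genes were not analysed here. A gene picked by the naming rule is not reported here.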

Additional observations from a re-analysis of the deposited data

How the results depend on the processing

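All 5 Ifit genes kept their direction and their call in each of 14 alternative fits (other scaling factors, no filter or at least 50 reads in 2 libraries, non-robust dispersion, DESeq2, limma-voom, a replicate block, each library left out, and Rn45s left out, the last chosen after seeing the data). Log2 fold changes ran from −3.51 to −3.29 for Ifit1, −2.05 to −1.74 for Ifit2, −3.36 to −3.07 for Ifit3, −3.68 to −3.27 for I830012O16Rik and −2.55 to −2.42 for Gm14446, with a largest adjusted p of 0.00199, for I830012O16Rik with limma-voom. Calls over all genes numbered 1986, or 1652 to 2584 over the alternatives. The labels give no sign that equal replicate numbers pair the samples, and the deviations of equal numbers correlated at −0.02 across genes. With the replicate block 1802 genes were called, and the members' log2 fold changes were −3.39 (Ifit1), −1.89 (Ifit2), −3.21 (Ifit3), −3.48 (I830012O16Rik) and −2.47 (Gm14446). Of 25 other genes refitted in the same way, Acta2 alone turned its direction, to −0.37 without the first NOD.B10 library, while without the second it was 1.41 and called higher. With 2 libraries per strain, a lone library left in a group is assumed to vary like the other group. Depth limits I830012O16Rik and 2010002M12Rik most.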
